A study of Mus musculus with 9 samples.

Results

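The 38 genes described here encode the machinery of DNA replication and the S phase program: the proteins that load the replicative helicase onto DNA and switch it on, the replicative polymerases, the sliding clamp and its loader, enzymes that join Okazaki fragments, enzymes that supply deoxynucleotides, histone-handling proteins and regulators of S phase entry. They form a list of gene symbols, drawn up with earlier results of these data known. The rule that picks their rows compares no groups, but it is not neutral between them, as described below. Of the 38, 37 were measured among 18193 named genes. Chaf1a, a subunit of the chromatin assembly factor CAF-1, had no probe set with a name here and was not analysed. Each gene is represented by its probe set of highest mean over the 9 arrays. Most of these arrays are of NSCs or yNSCs, so the pick leans toward probe sets that read high in those groups. Values are RMA expression summaries on the log2 scale, so that a difference of 1 is a 2-fold change. A probe's level says little about another probe's, and levels are therefore compared only between arrays for the same gene.

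Total RNA of 3 kinds of mouse neural cells was hybridised to Affymetrix arrays, with 3 biological replicates (A, B and C) per group. Neurons were primary cortical cultures from late embryos or newborns, held in Neurobasal with B27 and AraC (cytosine arabinoside, which kills cells that copy their DNA). Such cultures are enriched in post-mitotic neurons. NSCs were native neural stem cells, whose medium was DMEM/F12 supplemented with EGF, bFGF (both mitogens for these cells) and N2. The yNSCs were cells grown in that same NSC medium after cortical neurons had received wild-type YAP under doxycycline control, delivered by lentivirus together with the transactivator that doxycycline requires. YAP is a transcriptional coactivator of the Hippo pathway, and the study asked whether it can turn neurons into cells with the properties of NSCs. The first yNSC spheres formed under doxycycline, and later passages were grown without it. The passage of the yNSCs on the arrays is not given in the sources used here, so whether YAP was still induced in them is not known. Medium and growth factors therefore differed between neurons and the other groups along with cell type, and the effects of each cannot be told apart. Between yNSCs and NSCs, the cells of origin differed along with the history of lentivirus, YAP and doxycycline, and these effects cannot be told apart either.

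DNA replication begins with licensing in G1, when the origin recognition complex, Cdc6 and Cdt1 load the ring formed by Mcm2 to Mcm7 around DNA. At S phase entry Cdc45 and the GINS complex join the ring and activate it as a helicase, primase and the polymerases copy both strands, and the clamp Pcna holds polymerases on their template. Many of these genes are transcribed in a burst late in G1 by E2F factors once RB family repressors release them, and neurons, which have left the cell cycle for good, normally keep them low.

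E2F binding sites are a shared feature of this gene class that the choice of genes did not use, and for that reason the promoter stretches holding one are shown. Windows from 250 bases before to 50 bases after the annotated gene start were taken from RefSeq (GRCm38.p6) for 32 of the 38 genes, in 36 windows. Ccne2, Gins1, Gins2, Mcm4, Pole and Rfc2 were the other 6. Both strands were searched for TTTCCCGC, TTTCGCGC, TTTGCCGC and TTTGGCGC. At least 1 of these strings was present in 12 of 36 windows (33.3%), against 2.26% of all 32851 promoter windows in the table and 3.21% of the windows of genes on the array. The 12 genes were Cdc6, Cdt1, Gins3, Lig1, Mcm3, Mcm5, Mcm6, Mcm7, Orc1, Pola1, Pold1 and Rfc3. In Lig1, Pold1, Mcm3 and Cdt1 the match lay after the annotated start, and these are not printed. The stretches before the start in the other 8 genes are written 5′ to 3′ on the strand of the gene, with the matched bases in capitals. Where the capitals read GCGCCAAA, GCGCGAAA or GCGGGAAA the match is on the opposite strand, and in Mcm5 and in the first Mcm6 stretch matches on both strands overlap.
Mcm6, chr1:128359783-128359836, minus strand: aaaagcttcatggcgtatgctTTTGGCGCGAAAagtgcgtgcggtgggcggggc
Mcm6, chr1:128359724-128359773, minus strand: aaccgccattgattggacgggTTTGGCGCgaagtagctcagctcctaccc
Mcm5, chr8:75109335-75109388, plus strand: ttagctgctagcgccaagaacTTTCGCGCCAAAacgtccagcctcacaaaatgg
Mcm7, chr5:138172020-138172069, minus strand: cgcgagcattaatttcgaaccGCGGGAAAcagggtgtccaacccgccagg
Orc1, chr4:108579406-108579453, plus strand: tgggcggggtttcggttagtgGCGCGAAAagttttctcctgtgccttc
Cdc6, chr11:98907992-98908041, plus strand: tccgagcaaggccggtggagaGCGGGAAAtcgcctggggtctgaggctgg
Gins3, chr8:95633497-95633546, plus strand: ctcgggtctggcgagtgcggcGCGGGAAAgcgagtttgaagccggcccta
Pola1, chrX:93632265-93632314, minus strand: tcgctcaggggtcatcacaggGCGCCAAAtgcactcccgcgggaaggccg
Rfc3, chr5:151651209-151651239, minus strand: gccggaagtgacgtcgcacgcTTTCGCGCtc

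A CCAAT box (CCAAT), which binds NF-Y, was present in 20 of the 36 windows (55.6%), against 37.4% of all windows. The CHR element (TTTGAA), which is known from promoters of G2 and M phase genes, was present in 4 windows (11.1%), those of Cdc45, Fen1, Gins3 and Mcm2. It was present in 17.9% of all windows and in 13.4% of the windows of genes on the array, a share near that of these genes. A match describes letters and says nothing of binding in these cells. In yNSCs against neurons the 12 genes with an E2F type match had differences from -0.92 (Orc1) to 4.58 (Cdc6) with a median of 2.82, and the 19 measured genes with a window and no match ran from 0.74 to 4.40 with a median of 2.0. The spans overlapped over most of their length.

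Before the results, some facts of the arrays. Array medians lay between 4.90 and 5.02. The 7 neuron markers were lower in both stem cell groups than in neurons, by medians of -6.40 in yNSCs and -6.74 in NSCs. Of 6 neural stem cell markers 5 were higher in each, against 34.6% of all genes in yNSCs and 33.3% in NSCs. Microglial markers, such as the complement genes C1qa and C1qb, were high in the neuron arrays, where the median of 8 genes was 8.95 to 9.64, against 3.54 to 3.93 in NSCs and 4.64 to 4.81 in yNSCs. They thus moved opposite to the replication genes, and 7 of 8 were called lower in yNSCs and 8 of 8 in NSCs. Of all genes, 27.9% and 34.1% were called lower. Astrocyte markers were high in the neuron arrays too, with array medians of 10.47 to 10.75, against 8.52 to 9.30 in NSCs and 10.14 to 10.19 in yNSCs. Medians of oligodendrocyte precursor markers were 8.72 to 8.88 in neurons, 7.89 to 8.12 in NSCs and 5.70 to 5.91 in yNSCs. The part of such cells in the differences from neurons was not tested. NSC replicate A stood apart from its group: 162 genes differed more than 2-fold from the other NSC arrays, against 1 to 30 genes on each other array. In bulk RNA a lower share of dividing cells and less RNA of a gene per dividing cell cannot be told apart.

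Against neurons, the replication genes were higher almost without exception in both stem cell groups. In yNSCs 36 of 37 were called higher, where 34.6% of all genes tested were, and 1 was called lower, where 27.9% were. The median difference over the 37 genes was 2.51 on the log2 scale, against -0.01 over all genes. In NSCs the counts were likewise 36 higher and 1 lower, against 33.3% and 34.1% of all genes, with a median difference of 2.92 against -0.07. The gene called lower was Orc1 in both comparisons, on 1 of its 2 probe sets. Differences of at least 2-fold upward were seen for 34 genes in yNSCs and 33 in NSCs, against 18.3% and 18.6% of all genes, and of at least 8-fold for 14 and 16, against 1.95% and 2.19%. The yNSC and neuron arrays did not overlap for any of the 37 genes, and the NSC and neuron arrays did not for 36, against 67.0% and 69.1% of all genes in either direction. Both comparisons rest on the same 3 neuron arrays.

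**Figure D1:**
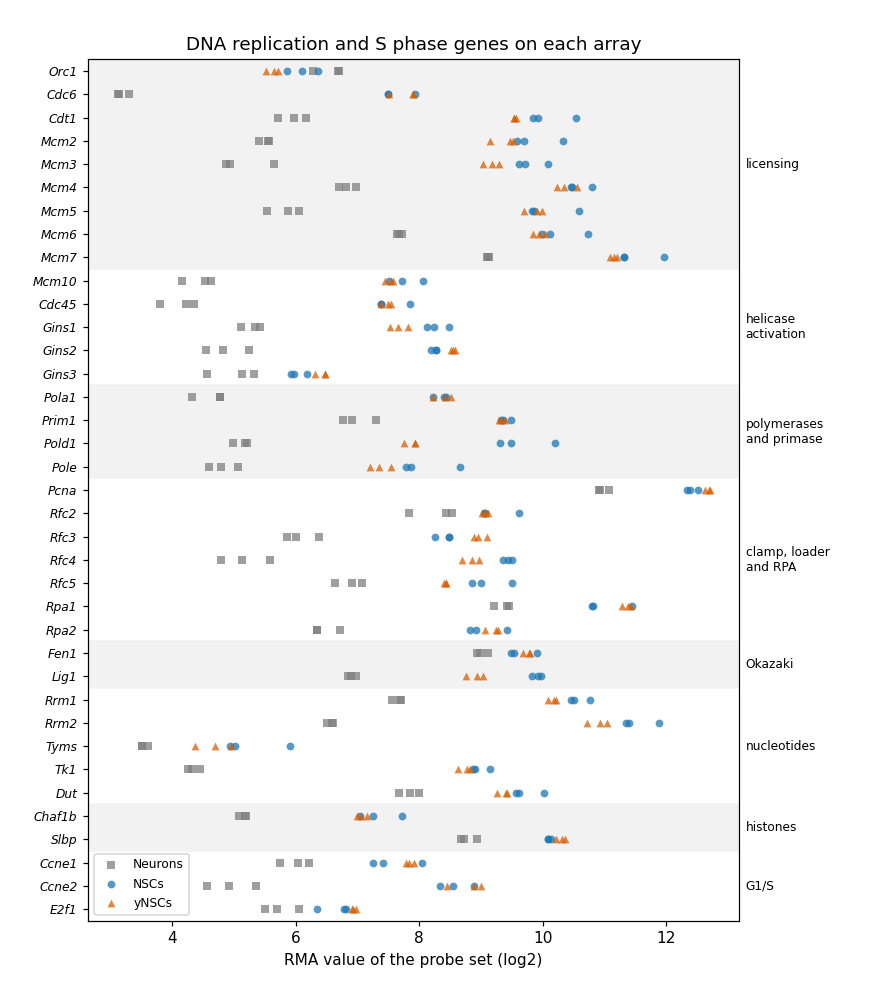
RMA value (log2, x axis) of each of the 37 measured genes (rows, grouped by role) on each of the 9 arrays; squares are neurons, circles NSCs and triangles yNSCs, 3 of each. Neuron arrays lie to the left of both stem cell groups in every row except Orc1, and Cdc6 goes from 3.12 to 3.31 in neurons to 7.50 to 7.94 in the stem cell groups.

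On the chosen probe sets, licensing genes had the largest median difference from neurons of the 8 roles, 3.59 in yNSCs and 4.15 in NSCs. The roles hold 2 to 9 measured genes, rises depend on the probe set, and whether the roles differ was not tested. Cdc6, the ATPase that helps the origin recognition complex load the Mcm ring, had values of 3.12, 3.15 and 3.31 in neurons, 7.94, 7.50 and 7.50 in NSCs and 7.90, 7.90 and 7.51 in yNSCs. Its neuron mean of 3.19 was near background, here meaning below the mean lower quartile of that group's arrays, so the differences of 4.58 (SE 0.15, adjusted p = 1.04e-10, limma) in yNSCs and 4.45 in NSCs may understate the change. NSCs and yNSCs overlapped for Cdc6. Mcm2, a subunit of the ring, had values of 5.56, 5.57 and 5.41 in neurons, 10.33, 9.58 and 9.70 in NSCs and 9.52, 9.47 and 9.14 in yNSCs. That is 14.6-fold higher in yNSCs than in neurons (adjusted p = 2.25e-09) and 20.5-fold higher in NSCs. The other ring subunits Mcm3, Mcm4 and Mcm5 were 11.7-fold to 16.5-fold higher in yNSCs than in neurons, and Mcm6 and Mcm7 were 4.79-fold and 4.10-fold higher. The second probe set of Mcm6, however, rose 17.9-fold in yNSCs and 28.3-fold in NSCs, so the subunits cannot be ranked by their rise. Mcm7 was already well above background in neurons, at 9.13, 9.10 and 9.11. Cdt1, which brings the ring to origins, had values of 5.72, 5.97 and 6.17 in neurons, 10.53, 9.84 and 9.93 in NSCs and 9.56, 9.54 and 9.54 in yNSCs, a rise of 12.1-fold in yNSCs.

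Orc1, the largest and most cell cycle dependent subunit of the origin recognition complex, was the only gene that went down on its chosen probe set. Its values were 6.28, 6.70 and 6.68 in neurons, 6.37, 5.86 and 6.11 in NSCs and 5.72, 5.52 and 5.65 in yNSCs. The difference was -0.92 (SE 0.15, adjusted p = 0.000166) in yNSCs and -0.44 (adjusted p = 0.0214) in NSCs, and neurons and NSCs overlapped. The second Orc1 probe set read the opposite way: 3.62, 4.08 and 4.16 in neurons, 6.64, 6.41 and 6.41 in NSCs and 6.30, 6.09 and 5.90 in yNSCs. There the differences from neurons were 2.14 and 2.53, and no array of neurons overlapped either stem cell group. On that probe set neurons, not yNSCs, were lowest. The direction of Orc1 is therefore not settled by these arrays.

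Helicase activation genes rose as a group, with 5 of 5 called higher in each comparison with neurons. Cdc45, which completes the active helicase, had values of 3.80, 4.23 and 4.36 in neurons, 7.85, 7.38 and 7.38 in NSCs and 7.49, 7.54 and 7.38 in yNSCs, about 10-fold apart (10.1-fold in yNSCs and 10.6-fold in NSCs). Mcm10, which is needed for the helicase to start unwinding, rose 8.46-fold in yNSCs and somewhat more, by 3.32 on the log2 scale, in NSCs. On their chosen probe sets the GINS subunits did not move by the same amount. Gins2 was at 4.55, 5.24 and 4.82 in neurons, 8.28, 8.28 and 8.19 in NSCs and 8.54, 8.58 and 8.52 in yNSCs, a 12.8-fold rise in yNSCs. Gins1 rose 5.18-fold and Gins3 2.67-fold. Their second probe sets gave the opposite order, 1.53-fold for Gins1, near background in neurons, and 3.07-fold for Gins3. These subunits therefore cannot be ranked by their rise.

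The polymerase and primase genes were all called higher. Pola1, the catalytic subunit of polymerase alpha, which begins each new strand, had values of 4.33, 4.77 and 4.78 in neurons, 8.22, 8.41 and 8.43 in NSCs and 8.52, 8.42 and 8.23 in yNSCs. Both stem cell groups lay over 13-fold above neurons (13.6-fold in yNSCs and 13.2-fold in NSCs) and overlapped each other. Prim1, the catalytic primase subunit, rose 5.06-fold in yNSCs and 5.24-fold in NSCs. Pold1, the catalytic subunit of lagging-strand polymerase delta, read 4.99, 5.22 and 5.18 in neurons, 10.20, 9.31 and 9.48 in NSCs and 7.93, 7.93 and 7.76 in yNSCs. No array of any group overlapped another: yNSCs were 6.70-fold above neurons and NSCs 23.2-fold. The second Pold1 probe set gave smaller rises, 2.85-fold in yNSCs and 8.3-fold in NSCs. Pole, the catalytic subunit of leading-strand polymerase epsilon, rose 5.84-fold in yNSCs and 9.76-fold in NSCs.

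Clamp, clamp loader and single-strand binding genes spanned a wide range of differences. Pcna was already at 10.91, 11.08 and 10.93 in neurons and reached 12.52, 12.34 and 12.39 in NSCs and 12.69, 12.63 and 12.70 in yNSCs, a 3.25-fold rise in yNSCs (adjusted p = 1.57e-08). Subunits of replication factor C, which opens and loads the clamp, ranged from Rfc2, at 1.75-fold, to Rfc4, at 12.7-fold, in yNSCs against neurons. Rfc4 was at 5.59, 4.80 and 5.14 in neurons, 9.50, 9.35 and 9.44 in NSCs and 8.85, 8.97 and 8.70 in yNSCs. Rpa1 and Rpa2, which coat single-stranded DNA, rose 4.01-fold and 6.62-fold in yNSCs. Of the Okazaki fragment enzymes, Lig1, the ligase that seals fragments, rose 4.0-fold in yNSCs and 7.98-fold in NSCs, and Fen1, the flap nuclease, rose 1.67-fold and 1.54-fold on its brightest probe set. A second Fen1 probe set gave a larger difference, 2.92 in yNSCs and 2.53 in NSCs on the log2 scale.

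Genes of deoxynucleotide supply rose in both groups, 5 of 5 each. Rrm2, the small and S phase specific subunit of ribonucleotide reductase, had values of 6.51, 6.59 and 6.61 in neurons, 11.88, 11.39 and 11.35 in NSCs and 11.04, 10.93 and 10.71 in yNSCs, which is 20.0-fold (adjusted p = 1.38e-10) and 31.3-fold above neurons. Tk1, the cytosolic thymidine kinase, read 4.32, 4.45 and 4.26 in neurons, 9.14, 8.90 and 8.87 in NSCs and 8.77, 8.83 and 8.63 in yNSCs, 21.1-fold above neurons in yNSCs. The large reductase subunit Rrm1 rose 5.70-fold and Dut, which clears dUTP, 2.88-fold in yNSCs. Tyms, thymidylate synthase, was near background in neurons (3.51, 3.52 and 3.61) and reached 4.69, 4.95 and 4.38 in yNSCs. Another Tyms probe set, near background in all 3 groups, was called the opposite way against neurons (-0.33 in yNSCs and -0.37 in NSCs), so the Tyms change rests on a dim probe set.

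Enzymes that keep deoxynucleotides in balance in cells that do not divide did not share 1 direction. Rrm2b, the reductase subunit used outside S phase, was at 7.94, 7.93 and 7.71 in neurons, 7.13, 7.48 and 7.69 in NSCs and 8.36, 8.33 and 8.06 in yNSCs. It was lower in NSCs than in neurons (-0.43, adjusted p = 0.0227) and higher in yNSCs (0.39, adjusted p = 0.0368). Neither call was firm: leaving out neuron array A, neuron array B or NSC array A ended the first, as did the second probe set, and with the mean of its probe sets it turned to 0.42. The second was lost with the replicate block, with quantile normalization again and without neuron replicate B or C or yNSC replicate A or B. Dguok, the mitochondrial deoxyguanosine kinase, was higher in yNSCs than in neurons (0.52, lost with quantile normalization again, which gave 0.20), and its difference in NSCs was -0.13 (adjusted p = 0.286). Tk2, the mitochondrial thymidine kinase, was lower in NSCs (-0.46), with a difference of -0.15 in yNSCs (adjusted p = 0.205). Samhd1, which breaks deoxynucleotides down, was higher in both on its brightest probe set, by 1.02 in yNSCs and 1.82 in NSCs, but lower in both on 2 of its other 4, so its direction is not settled. Between yNSCs and NSCs, Dguok was higher in yNSCs by 0.65. Rrm2b was higher by 0.82 and 1.10 on its 2 brightest probe sets and lower by -0.49 and -0.70 on its 2 dimmest, and the mean of all 4 (0.18) was not called. The call of Tk2 (0.31) was lost without NSC replicate B or any single yNSC array, and that of Samhd1 (-0.79) with the mean of its probe sets or its second probe set.

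Among the last groups, Slbp, which binds the stem-loop of replication-dependent histone mRNAs, rose 2.86-fold in yNSCs, from 8.67, 8.73 and 8.94 in neurons to 10.36, 10.31 and 10.22. Chaf1b, the CAF-1 subunit that could be measured, rose 3.77-fold. The cyclin E genes, whose products drive cells into S phase with Cdk2, moved unequally: Ccne2 was at 4.93, 5.36 and 4.57 in neurons, 8.88, 8.34 and 8.54 in NSCs and 8.88, 9.00 and 8.45 in yNSCs, 14.2-fold higher in yNSCs, and Ccne1 was 3.58-fold higher. E2f1, an activator of S phase genes, rose 2.28-fold in yNSCs and 1.85-fold in NSCs.

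Set directly against NSCs, most replication genes were not called. With all 9 arrays, 14 of 37 were called lower in yNSCs, where 18.0% of all genes were, and only Rfc3 was called higher, where 21.3% were. The median difference over the genes was -0.23, against 0.07 over all genes, and 24 of 37 means lay below and 13 above the NSC mean. The remaining 22 genes were not called. Their differences ran from -0.38 to 0.39, all 22 intervals (95%, from the moderated standard error) lay within a 2-fold change in either direction, and 11 lay within a 1.5-fold change. Pola1 (0.04), Prim1 (-0.05) and Cdc45 (-0.07) were closest to 0. Arrays of yNSCs and NSCs did not overlap for 21 of the 37 genes, a share near the 51.6% of all genes in either direction. For 15 of the 37 the yNSC arrays were the lower, against 21.9% of all genes, and for 6 the higher, against 29.6%.

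Much of that shift came with 1 array. On NSC replicate A, 31 of the 37 genes read above both other NSC arrays, by a median of 0.44 over the genes relative to the mean of those arrays. Without it, 8 genes were called lower (Gins1, Lig1, Pold1, Pole, Rfc4, Rfc5, Rrm1 and Rrm2) and 4 higher (Ccne1, Pcna, Rfc3 and Rpa1), and the median difference was -0.09. The licensing genes Cdt1, Mcm2, Mcm3 and Orc1, with Dut and Tyms, lost their call without that array. Without yNSC replicate C the count called lower was 6, and without yNSC replicate B it was 9. Over all 9 ways of leaving out 1 array, Gins1, Lig1, Pold1, Rfc5, Rrm1 and Rrm2 were called lower each time and Rfc3 higher each time. RNA quality differed between the groups as well. The 3′ minus 5′ signal of the Actb control probe sets was 0.56 to 0.70 in NSCs, 0.19 to 0.31 in yNSCs and 0.03 to 0.21 in neurons, and its part in these differences was not tested. Cell type markers differed between yNSCs and NSCs too, where 21.3% of all genes were called higher and 18.0% lower in yNSCs. Of 7 neuron markers 3 were higher in yNSCs, Snap25 (2.12), Stmn2 (1.93) and Tubb3 (1.28). Rbfox3 was lower (-1.92) and 3 were not called. Of 6 astrocyte markers 5 were higher in yNSCs, led by Gfap (5.42) and Aqp4 (4.83), with array medians of 10.14 to 10.19 in yNSCs and 8.52 to 9.30 in NSCs. Of 5 oligodendrocyte precursor markers 3 were lower, led by Pdgfra (-3.12) and Cspg4 (-2.20), with array medians of 5.70 to 5.91 against 7.89 to 8.12, and 5 of 8 microglial markers were higher. Their part was not tested.

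**Figure D2:**
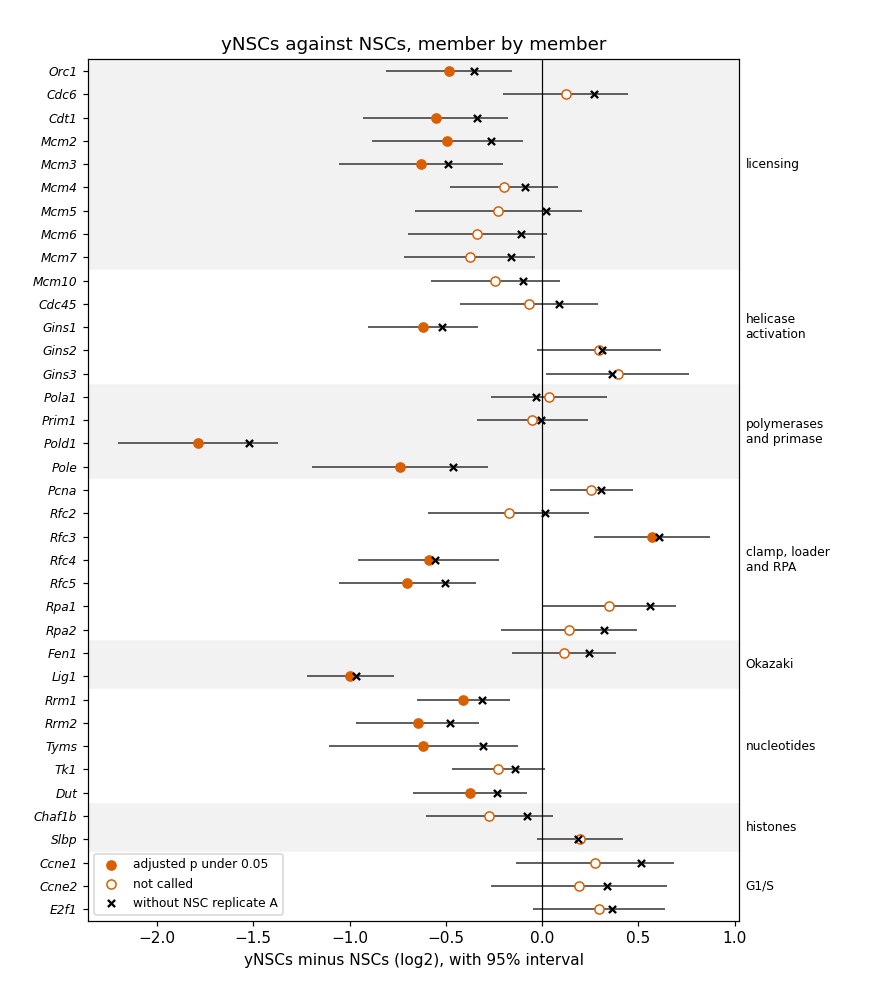
Difference of yNSCs from NSCs (log2, x axis) for each of the 37 genes, with its 95% interval; filled circles are called at the adjusted p threshold of 0.05, open circles are not, and crosses give the difference without NSC replicate A. Pold1 (-1.79) and Lig1 (-1.0) lie farthest to the left, Rfc3 (0.57) farthest to the right, and most crosses lie to the right of their circle.

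The largest difference between the stem cell groups was in Pold1, at -1.79 (SE 0.19, adjusted p = 1.17e-05), 3.46-fold lower in yNSCs, with no overlap of the arrays. With each array left out in turn it ran from -1.97 to -1.52, and the second Pold1 probe set gave -1.54. Lig1, with which polymerase delta completes the lagging strand, came next: 9.97, 9.92 and 9.83 in NSCs against 9.03, 8.94 and 8.76 in yNSCs, a difference of -1.0 (SE 0.10, adjusted p = 1.02e-05). Pole (-0.74, adjusted p = 0.0138) and Rfc5 (-0.70, adjusted p = 0.00445) followed. Rfc5 was at 9.51, 9.00 and 8.86 in NSCs and 8.44, 8.40 and 8.43 in yNSCs. Rrm2 was lower by -0.65 (adjusted p = 0.00357), its second probe set gave -0.58, and the dimmest of its 3 gave -0.21 and was not called (adjusted p = 0.435).

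Subunits of 1 complex did not all go the same way. In replication factor C, Rfc3 was at 8.48, 8.26 and 8.48 in NSCs and 8.89, 9.09 and 8.95 in yNSCs, 0.57 higher (SE 0.14, adjusted p = 0.00552), while Rfc4 and Rfc5 were lower by -0.59 and -0.70 and Rfc2 differed by -0.17 (adjusted p = 0.528). The second probe set of Rfc3 gave 0.62 and that of Rfc4 gave -0.76. In GINS, Gins1 was lower by -0.62 (adjusted p = 0.00232) and its second probe set by -0.66, whereas Gins3 differed by 0.39 (adjusted p = 0.0906) on its chosen probe set and was higher by 0.87 on the second. Gins2 differed by 0.30 (adjusted p = 0.141) on its chosen probe set and was higher by 0.39 (adjusted p = 0.0459) on the second.

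The partners of Pold1 and Orc1, from a list of 46 further measured replication genes and singled out after their values were seen, differed in direction as well. Pold4, the smallest accessory subunit of polymerase delta, read 6.27, 6.18 and 5.88 in neurons, 7.58, 7.90 and 7.88 in NSCs and 10.49, 10.35 and 10.54 in yNSCs. It was 2.67 higher in yNSCs than in NSCs (SE 0.13, adjusted p = 1.68e-08), in the opposite direction to Pold1, and has 1 probe set here. Pold2 was lower by -0.68 (adjusted p = 0.00442), and Pold3 differed by -0.24 on its chosen probe set and was higher by 0.59 on another. In the origin recognition complex, Orc2 (1.01), Orc3 (0.37), Orc4 (0.84) and Orc6 (0.67) were higher in yNSCs than in NSCs, Orc5 differed by 0.33 and was not called, and Orc1 was lower by -0.48 (-0.39, not called, on its second probe set). The second probe set of Orc4 differed by -0.05 and was not called, and the next brightest was higher by 0.77. All 3 Orc2 probe sets were higher in yNSCs, by 1.01 to 1.67. The arrays of yNSCs and NSCs did not overlap for Orc2, which read 7.91, 7.55 and 7.44 in NSCs and 8.66, 8.74 and 8.53 in yNSCs.

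**Figure D3:**
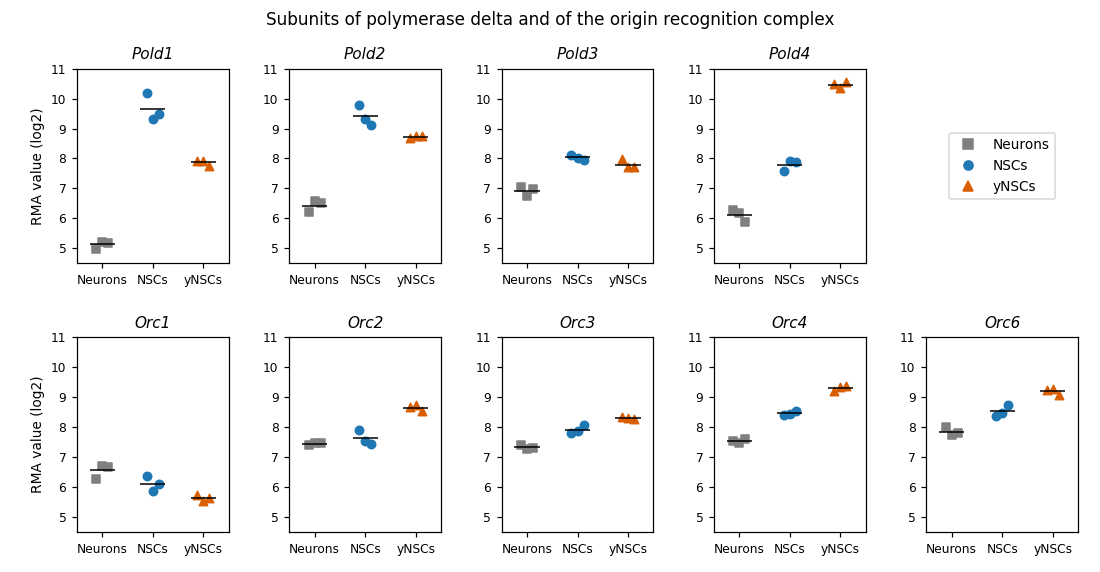
RMA value (log2, y axis, same scale in all panels) of subunits of polymerase delta (top) and of the origin recognition complex (bottom) on each array, with a line at each group mean. Pold1 falls from a mean of 9.66 in NSCs to 7.87 in yNSCs while Pold4 goes from 7.79 to 10.46, and Orc2, Orc3, Orc4 and Orc6 are highest in yNSCs. Orc1 is lowest in yNSCs on the probe set plotted, but neurons are lowest on its second probe set (3.95, against 6.10 in yNSCs).

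Other probe sets show how far each gene's reading depends on the choice. Of the 37 genes, 30 have several named probe sets. An opposite call on another probe set was found for Orc1 and Tyms in yNSCs against neurons, and for E2f1, Mcm10, Orc1 and Tyms in NSCs against neurons. In yNSCs against NSCs it was found for Mcm3 and Rrm1. Rrm1 was lower on its brightest probe set, with 10.77, 10.45 and 10.50 in NSCs and 10.18, 10.22 and 10.09 in yNSCs (-0.41, adjusted p = 0.0107), and higher by 0.63 on the next. Of the 5 Mcm3 probe sets the brightest gave -0.63 and the fourth gave 0.75. The second probe set of Rpa2 was higher by 0.85, where the chosen one differed by 0.14 (adjusted p = 0.546). Against NSCs, Pold1, Gins1, Rfc3 and Rfc4 were called the same way on both of theirs.

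**Figure D4:**
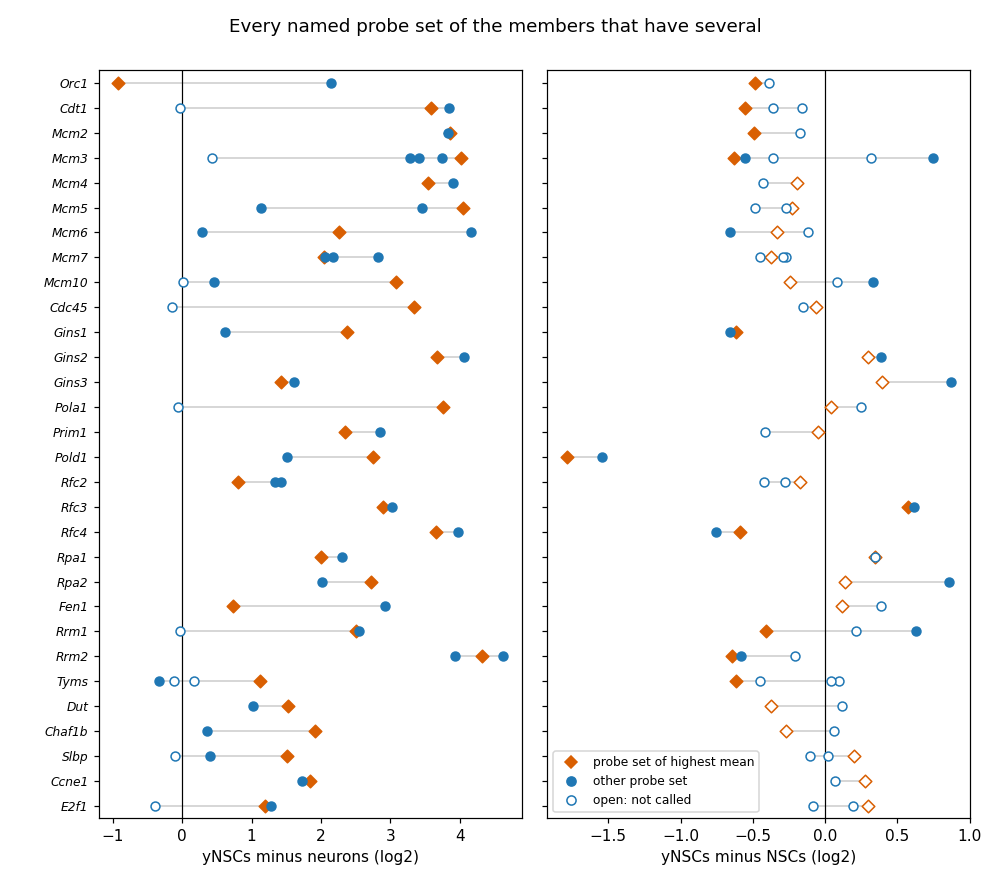
Differences (log2, x axes) of yNSCs from neurons (left) and from NSCs (right) on each named probe set of the 30 genes that have several; diamonds are the probe set of highest mean, circles the others, and open symbols were not called when adjusted over all named probe sets. Against neurons nearly all called probe sets lie right of 0, with the brightest of Orc1 (-0.92) and 1 of Tyms (-0.33) as the exceptions, while against NSCs the 2 Pold1 probe sets (-1.79 and -1.54) lie apart from the rest.

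The wider replication and cell cycle lists give the setting for these values. Over all genes, 34.6% were called higher and 27.9% lower in yNSCs against neurons, and 33.3% and 34.1% in NSCs. Of the 46 other replication genes, 44 were called higher and 1 lower in yNSCs against neurons, with a median of 1.66, and 43 were higher and 1 lower in NSCs, with a median of 1.78. The licensing inhibitor Gmnn was higher by 4.07 in yNSCs and Uhrf1, which guides maintenance methylation, by 4.09. Dscc1, which helps load the clamp for sister chromatid cohesion, was near background in neurons (mean 2.90) and reached a mean of 7.46 in yNSCs, and its second, dim probe set differed by 0.40 and was not called. The gene called lower in both was Shmt1, a folate enzyme that feeds thymidylate synthesis, at -2.24 in yNSCs and -2.26 in NSCs on its brightest probe set. Its other 3 probe sets were higher in both, by 1.68 to 2.71 in yNSCs and 1.95 to 3.52 in NSCs, and with the mean of all probe sets no gene of the list was called lower, so the direction of Shmt1 is not settled. Between yNSCs and NSCs 8 of the 46 (17.4%) were higher and 17 (37.0%) lower, against 21.3% and 18.0% of all genes, with a median of -0.16. The latter were led by Ticrr (-1.48), Dbf4 (-1.09) and Dck (-1.06), which act in helicase activation, as partner of the Cdc7 kinase and in deoxynucleoside salvage. Dimmer probe sets of Ticrr and Dbf4 were not called, and 1 of the 3 of Dck was higher by 0.74.

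Of 16 genes of the E2F and RB network, 14 (87.5%) were called higher in each stem cell group than in neurons. Of all genes, 34.6% were in yNSCs and 33.3% in NSCs. Between yNSCs and NSCs, 9 (56.2%) were lower, against 18.0% of all genes, and 1 (6.2%) was higher, against 21.3%. The gene called higher was the repressor E2f6 (0.97), and the median of the list was -0.48. With the probe sets of second highest mean 6 were lower and the median was -0.11, E2f6 gave -0.13 and E2f8 gave 0.14, neither called. The atypical repressor E2f7 read 3.56, 3.81 and 3.67 in neurons, 8.55, 7.65 and 7.84 in NSCs and 6.13, 6.16 and 5.87 in yNSCs, a difference of -1.96 between the stem cell groups, and its neuron mean of 3.68 was near background. Cdc25a, the phosphatase that activates Cdk2, was lower by -1.58, Skp2, which marks the inhibitor p27 for destruction, by -1.42 and E2f8 by -1.36. E2f1 itself differed by 0.30 (adjusted p = 0.167).

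The 19 measured G2 and M phase genes were called higher than neurons 19 of 19 times in each group. Of all genes, 34.6% were in yNSCs and 33.3% in NSCs. The medians of the list were 3.18 in yNSCs and 4.61 in NSCs. Between yNSCs and NSCs 17 (89.5%) were called lower, against 18.0% of all genes, with a list median of -1.19. Of the 17, 12 were lower by at least 2-fold. The centromere histone Cenpa was lower by -2.34, Cdc20, which activates the anaphase-promoting complex, by -1.95, Ccnb2 by -1.79 and Ube2c by -1.62. Cdk1 (-0.27) and Nusap1 (-0.51) were not called. Without NSC replicate A, 18 were lower with a median of -1.32. On that array the G2 and M phase genes read below the other NSC arrays, by a median of -0.26, while the replication genes read above them. Of 22 genes of replication stress signalling and repair, 19 (86.4%) were higher in yNSCs than in neurons, against 34.6% of all genes. Among them was the checkpoint kinase Chek1 (3.95). Against NSCs 4 were called higher (18.2%) and 5 called lower (22.7%), shares near those of all genes (21.3% and 18.0%). Whether these lists differ from one another was not tested.

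**Figure D5:**
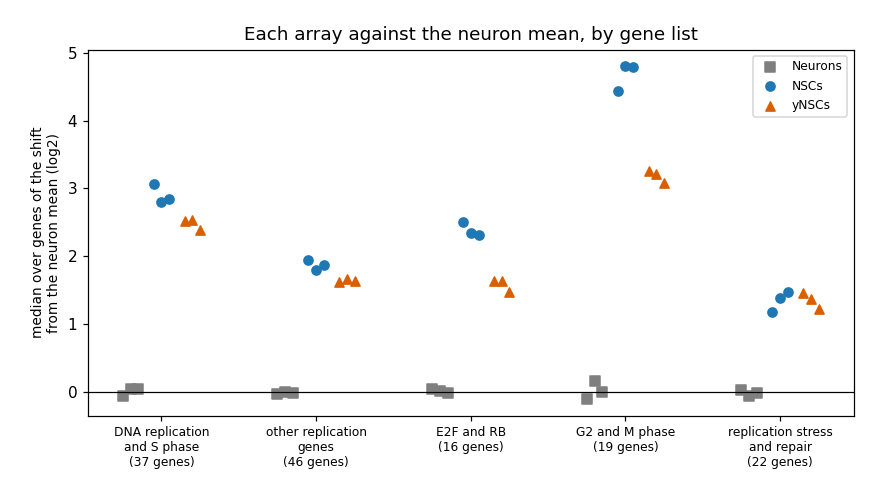
For each array, the median over the genes of a list of the array's value minus that gene's neuron mean (log2, y axis), for 5 lists; squares are neurons, circles NSCs and triangles yNSCs. The replication and S phase genes lie at 2.80 to 3.06 in NSCs and 2.39 to 2.53 in yNSCs, and the G2 and M phase genes at 4.43 to 4.80 and 3.08 to 3.26.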

How the data were processed

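RNA of 9 mouse cell cultures in 3 groups was measured on Affymetrix arrays. The deposited values are log2 summaries that the authors made with RMA, 1 per probe set, whose version and joint normalization are not given in the sources used here. They were used as deposited. Of 45101 probe sets, 64 controls were left out, 34945 have 1 gene symbol in the array annotation, and 932 with several symbols and 9160 not named here were not used. The probe set of highest mean over the arrays stood for a gene. The members and all other lists were chosen with earlier results of these data known.

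A linear model of the 3 group means was fitted to all 18193 genes and 9 arrays with limma 3.58.1 in R 4.3.3 (6 residual and 5.59 prior degrees of freedom), and 3 two-sided comparisons were made. A gene was called at a Benjamini-Hochberg adjusted p under 0.05 over all genes. Single probe sets were adjusted over all named probe sets. SE is the moderated standard error. The number of arrays limits the precision. The fit was tested on simulated data. Counts over a list are descriptions and carry no test. All members were named. Of other lists, the called genes of largest difference were named, plus genes said to be singled out.

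The alternatives tried were a block for the replicate letter, the 2 groups compared alone, leaving out the 40% of genes of lowest mean, quantile normalization again, subtraction of array medians, the mean of all probe sets, limma's trended and robust variance prior, a minimum change of 2-fold and leaving out each array. Chosen after seeing the data were leaving out probe sets marked as cross-hybridising or shared, the probe set of second highest mean, and each probe set alone.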

Additional observations from a re-analysis of the deposited data

How the results depend on the processing

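Counts of genes called higher than neurons stayed at 36 in both comparisons with each array left out, and the medians ran from 2.44 to 2.55 in yNSCs and from 2.82 to 2.98 in NSCs. Genes called lower numbered 1 to 1 in yNSCs and 0 to 1 in NSCs, where Orc1 lost its call when replicate B or C of either group was left out. Between yNSCs and NSCs, leaving out an array gave 1 to 4 higher (4 without NSC replicate A, 3 without neuron replicate B and 2 without neuron replicate C), 6 to 15 lower and medians of -0.32 to -0.09. With quantile normalization again the medians against neurons were 2.28 in yNSCs and 2.66 in NSCs, with the mean of all probe sets 2.13 and 2.25, and with the probe set of second highest mean 2.14 and 2.41. The count higher than neurons in yNSCs was 35 with quantile normalization again and 32 with the probe set of second highest mean. With that probe set in NSCs, 32 genes kept direction and call, 3 turned and 2 lost their call. The count lower than neurons was 0 with a 2-fold minimum or the mean of all probe sets in both groups, and 0 with the second probe set in yNSCs. Between yNSCs and NSCs, 4 were higher with those groups alone, 2 without low genes, with quantile normalization, with array medians subtracted, with a variance trend or without cross-hybridising probe sets, 5 with the mean of all probe sets, 6 with the second probe set and 0 with a 2-fold minimum. The count lower was 9 with the mean of all probe sets or the second probe set and 1 with a 2-fold minimum.

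Directions turned mostly with the probe set. Orc1 against neurons became 0.61 in yNSCs and 1.05 in NSCs with the mean of probe sets, and 2.14 and 2.53 with the second. The second probe set also gave -0.14 for Cdc45, -0.0667 for Pola1 and -0.10 for Slbp in yNSCs against neurons, and -0.32 for Mcm10 and -0.31 for Pola1 in NSCs. In yNSCs against NSCs it gave 0.0633 for Chaf1b, 0.12 for Dut, -0.0833 for E2f1, 0.33 for Mcm10, 0.63 for Rrm1 and -0.10 for Slbp, and the mean of probe sets gave 0.0556 for Mcm10 and 0.14 for Rrm1. With an array left out, small differences turned without NSC replicate A for Cdc45 (-0.145 to 0.09 over the arrays left out), Mcm5 (-0.3567 to 0.0183), Pola1 (-0.03 to 0.1167) and Rfc2 (-0.27 to 0.015), and without yNSC replicate A for Pola1 (-0.0283). The cause of these changes was not tested beyond the choice of probe set or array itself. With the replicate letter as a replicate block, 36 were higher and 1 lower against neurons in both groups, and 1 was higher and 13 lower in yNSCs against NSCs. Arrays of the same letter did not deviate together over all genes (correlations from -0.105 to 0.0997). The labels do not say whether a letter ties cultures together, and these correlations cannot decide it. Signal over background limits Cdc6 and Tyms in neurons, and of the other genes named Dscc1 and E2f7.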
